A study of Mus musculus with 9 samples.

Results

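The 34 genes described here encode proteins that copy DNA, condense chromosomes and drive cells through mitosis. They were taken as a list of names (Mki67, Top2a, cyclins and Cdk1, mitotic kinases, kinesins, condensin, the Mcm helicase and the enzymes of nucleotide supply), and all 34 were among the 24062 gene symbols with counts. The RNA came from the gastrocnemius, in the calf, of 3-month-old mice whose strain was a 129Sve/C57BL/6 mix. The groups were hetX753 and hetL1002P, mice with 1 altered copy of Bub1b, and wild type (WT), with 3 libraries each. Bub1b, which is not among the 34, encodes BubR1, a spindle checkpoint protein, and the X753 and L1002P alleles belong to mosaic variegated aneuploidy. The study asks what each allele does to muscle. Neither sex nor separate animals are stated for the 3 libraries of a group, so a p-value here reflects variation among libraries that may be technical.

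Muscle fibres are post-mitotic: their nuclei have left the cell cycle, and in resting adult muscle the cells that can still divide are satellite cells, which are mostly quiescent, and cells of vessels, connective tissue and blood. In dividing cells, replication genes are switched on before S phase by E2F factors, and the genes of G2 and mitosis later by B-Myb and FoxM1. In quiescent cells the DREAM complex, built on p130 (Rbl2) and E2F4, keeps these genes off, and it reaches the mitotic ones through a promoter element called CHR. Some replication proteins also work outside S phase, as Pcna does in DNA repair and Rrm1 in supplying nucleotides.

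Between 20106833 and 27797765 reads were counted per hetX753 library, between 22795669 and 25712368 per hetL1002P library, and between 19768149 and 33977252 per WT library. The altered gene, Bub1b, had 8, 8 and 5 counts in hetX753, 10, 9 and 2 in hetL1002P, and 21, 11 and 16 in WT libraries; counts per gene do not separate its alleles. On the first principal component, WT 3 (-47.5) and hetL1002P 3 (-32.5) lay apart from the others (-9.52 to 28.8). Fibre markers made the tissue plain: Acta1, Ckm, Myh4 and 9 others summed to between 179685 and 234066 CPM (read counts scaled to the TMM-adjusted library total). Of the 34 genes, 20 had enough counts to enter the fit of 12989 genes, and 14 were too scarce to be tested singly.

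Most promoter windows of these genes that were searched held letters tied to cell cycle factors, and those of Nusap1, Tyms and Birc5 held none. Of the windows, 4 are printed because they show both kinds of promoter. RefSeq windows (GRCm38.p6, 250 bases before to 50 after the start) were used for 27 of the 34 genes, 28 windows in all. They were searched on both strands for TTTGAA (the CHR), CCAAT (the NF-Y box) and an E2F site written as TTTCCCGC, TTTCGCGC, TTTGCCGC or TTTGGCGC. Cdk1 (chr10:69352863-69353162, minus strand) and Ccnb2 (chr9:70421505-70421804, minus strand) stand for mitotic genes that were nearly silent. Aurka (chr2:172370521-172370820, minus strand) stands for a mitotic gene that was not, and Mcm7 (chr5:138171834-138172133, minus strand) for replication. Each runs 5′ to 3′ along its gene, with matches in capitals; in Mcm7 the last E2F match runs into a CCAAT and shares its first base.
Cdk1: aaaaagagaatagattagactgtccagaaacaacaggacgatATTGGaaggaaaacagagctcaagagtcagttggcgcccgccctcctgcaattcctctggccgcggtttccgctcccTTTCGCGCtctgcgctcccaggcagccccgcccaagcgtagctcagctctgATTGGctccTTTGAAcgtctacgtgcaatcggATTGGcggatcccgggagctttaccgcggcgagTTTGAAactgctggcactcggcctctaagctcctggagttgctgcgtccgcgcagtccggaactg
Ccnb2: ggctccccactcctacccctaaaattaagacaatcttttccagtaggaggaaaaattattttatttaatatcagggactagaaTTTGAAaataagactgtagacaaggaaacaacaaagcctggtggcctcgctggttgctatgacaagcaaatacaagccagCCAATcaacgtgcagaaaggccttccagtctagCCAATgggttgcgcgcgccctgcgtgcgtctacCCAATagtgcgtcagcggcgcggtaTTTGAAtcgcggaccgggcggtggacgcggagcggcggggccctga
Aurka: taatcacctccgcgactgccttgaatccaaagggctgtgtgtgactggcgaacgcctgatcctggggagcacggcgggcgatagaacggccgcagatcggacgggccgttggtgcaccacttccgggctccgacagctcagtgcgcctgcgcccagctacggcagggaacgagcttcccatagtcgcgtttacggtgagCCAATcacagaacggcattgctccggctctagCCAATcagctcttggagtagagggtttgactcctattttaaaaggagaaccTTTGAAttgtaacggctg
Mcm7: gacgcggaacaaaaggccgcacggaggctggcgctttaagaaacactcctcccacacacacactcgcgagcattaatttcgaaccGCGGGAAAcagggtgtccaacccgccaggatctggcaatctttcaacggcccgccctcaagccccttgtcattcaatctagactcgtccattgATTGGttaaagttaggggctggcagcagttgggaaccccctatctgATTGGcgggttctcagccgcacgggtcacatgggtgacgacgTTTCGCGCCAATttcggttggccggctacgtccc

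The CHR letters were more frequent in windows of mitotic than of replication genes, a difference given as counts and not tested. TTTGAA was found in 14 of 18 windows of condensation and mitosis genes and in 1 of 10 windows of replication genes (that of Mcm2), against 17.9% of all 32851 windows searched. Chromosome 18, where Kif20a lies, was left out of the search. The mitotic windows without TTTGAA were those of Nusap1, Cenpe, Birc5 and Ccnb1. The window of Kif2c, counted among the 14, sits at a start inside the gene. It ends at base 117179022, and the gene, on the minus strand, begins at 117182624. CCAAT was frequent in both, in 15 of 18 and 9 of 10 windows, against 37.4% of all windows. The E2F letters were in 3 of 18 and 4 of 10 windows (Mcm3, Mcm5, Mcm6 and the upstream window of Mcm7 among the replication genes), against 2.26% of all. A match is a run of letters and not a shown binding site. CHR and CCAAT together were in 13 of the 18 mitotic windows, among them those of nearly silent genes (Cdk1, Ccnb2, Plk1, Mki67, Top2a) and those of well-transcribed ones (Aurka, Ncapd2).

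In this muscle, replication genes were transcribed and most mitotic genes were almost off. Levels between genes are compared as CPM per kb of exon, averaged over the 9 libraries. All 10 replication genes lay above the median of the 22750 genes with an exon length on this scale, from the 50.7th (Mcm5) to the 87.0th percentile (Pcna). That median is low, since 6129 of all 24062 symbols had 0 counts in every library. Mcm5 and Rrm2 (0.299 and 0.319 CPM per kb) stood close to the mitotic gene Kif20a (0.243 CPM per kb), just below the median. Of the 24 condensation and mitosis genes, 5 lay above the median: Aurka, Ncapd2, Tpx2, Smc4 and Cenpa. The level of Pcna, the sliding clamp of DNA polymerases, was 12.1 CPM per kb, 477 times that of Cdk1, the mitotic kinase, at 0.0253 CPM per kb. The 14 scarce genes lay between the 29.6th and 42.1st percentiles.

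**Figure D1:**
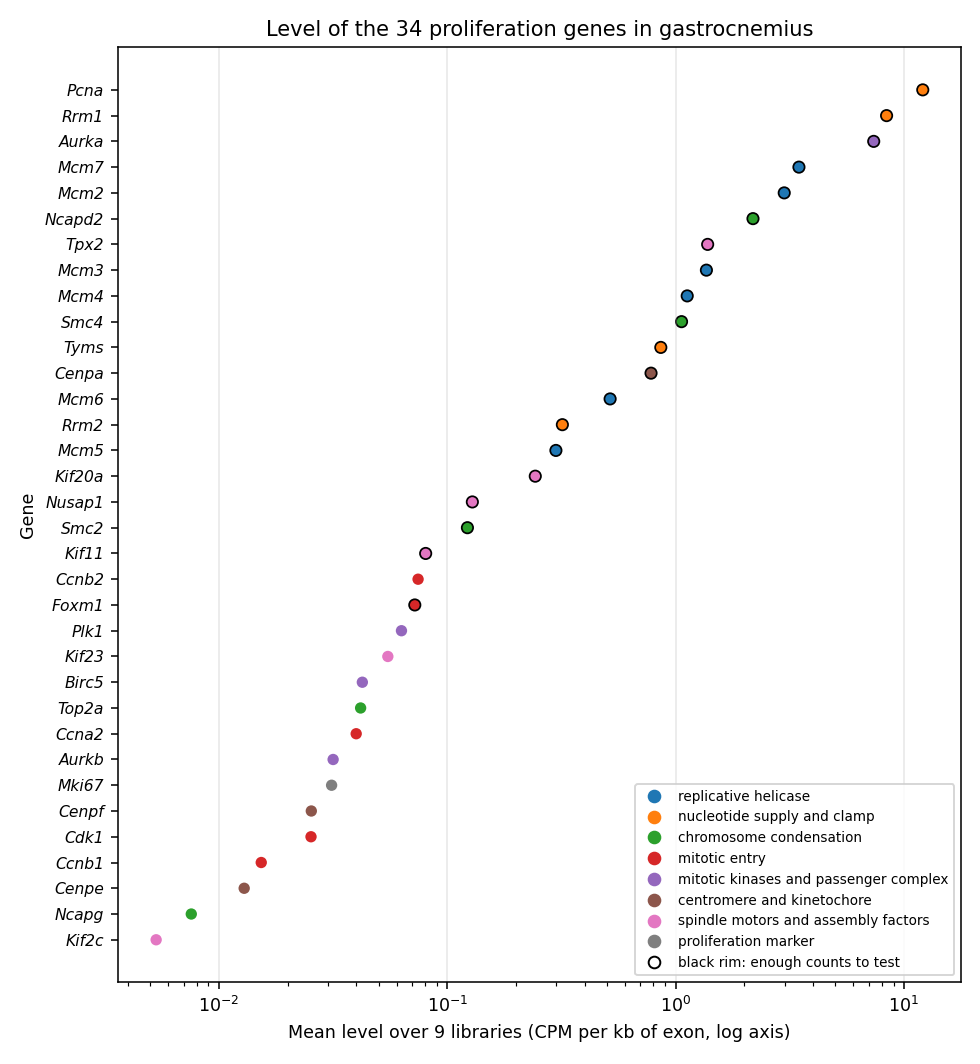
Mean level over the 9 libraries of each of the 34 genes (CPM per kb of exon, log axis), coloured by role, with a black rim where the gene had enough counts to be tested. Pcna, Rrm1 and Aurka stand at the top (12.1, 8.39 and 7.37 CPM per kb) and Kif2c at the bottom (0.00531 CPM per kb).

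Among the enzymes of nucleotide supply, Rrm1 and Rrm2, subunits of ribonucleotide reductase, differed widely. Rrm2b, another small subunit, is given with the other replication genes. Rrm1, the large subunit, stood at 8.39 CPM per kb, 26.3 times the level of Rrm2, the small subunit that dividing cells make in S phase, at 0.319 CPM per kb. Rrm1 alone had 7469 counts over all libraries, the most of the 34, and with Pcna (4031) and Aurka (3146) made up 51.5% of all their counts. Rrm1 levels were 28.6, 32.0 and 35.4 CPM in hetX753, 37.2, 36.8 and 35.7 CPM in hetL1002P, and 32.7, 33.5 and 29.9 CPM in WT libraries. The hetL1002P libraries were all above WT and above hetX753, by a log2 difference of 0.19 (SE 0.11, adjusted p = 0.579) against WT. Pcna levels were 17.5, 16.1 and 20.6 CPM in hetX753, 16.2, 15.9 and 19.9 CPM in hetL1002P, and 17.0, 18.5 and 23.4 CPM in WT, and the genotypes overlapped. Tyms, thymidylate synthase, averaged 2.98 ± 0.345 CPM in hetX753, 2.51 ± 0.565 CPM in hetL1002P and 2.68 ± 0.323 CPM in WT (SD, n = 3 each).

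The 6 subunits of the Mcm2-7 helicase, which unwinds DNA as one ring with a single copy of each, did not have equal transcript levels. They ran from 0.299 CPM per kb for Mcm5 to 3.47 for Mcm7, an 11.6-fold span, with Mcm2 at 2.99, Mcm3 at 1.36, Mcm4 at 1.12 and Mcm6 at 0.517 CPM per kb. Exons of Mcm7 share 10.8% of their bases with Ap4m1 on the other strand, and the kit does not mark strand, so some of its counts may be reads of that gene. Mcm7 was among the steadiest of the 34 genes, at 9.91 ± 0.625 CPM in hetX753, 10.3 ± 1.23 CPM in hetL1002P and 10.6 ± 1.02 CPM in WT (SD, n = 3 each).

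Of the condensation genes, the condensin subunit Ncapd2 and the condensin ATPases Smc4 and Smc2 were measurable, and Ncapg, a subunit of condensin I, and Top2a, the topoisomerase that untangles chromosomes, were not. Ncapd2 levels were 10.5, 9.47 and 10.3 CPM in hetX753, 10.7, 10.4 and 10.8 CPM in hetL1002P, and 9.76, 10.01 and 8.94 CPM in WT libraries. Over all libraries Ncapd2 had 2253 of the 3470 counts of the 5 condensation genes. Ncapg had 2 counts over the 3 libraries of hetX753, 4 in hetL1002P and 1 in WT, and Top2a had 10 in hetX753, 19 in hetL1002P and 20 in WT. Summed over the 5 genes, condensation stood at 16.0 to 16.6 CPM in hetX753 and 15.6 to 16.1 CPM in hetL1002P, against 13.9 to 15.5 CPM in WT, so that both carriers lay above WT without overlap, as 2.92% of single genes tested did. The helicase sum went the other way in hetX753, at 28.5 to 31.4 CPM, against 31.9 to 35.3 CPM in hetL1002P and 31.5 to 34.3 CPM in WT. Of single genes tested, 15.8% likewise lay lower in hetX753 than in WT without overlap. Within the helicase, Mcm2 averaged 8.22 CPM in hetX753 and 10.7 CPM in WT. Mcm3, Mcm6 and Mcm7 also averaged lower in hetX753 than in WT, and Mcm4 and Mcm5 higher. Nucleotide supply and clamp summed to 49.7 to 60.6 CPM in hetX753, 56.2 to 58.5 CPM in hetL1002P and 53.0 to 56.0 CPM in WT. There hetL1002P lay above WT without overlap, as 5.67% of single genes tested did. Rrm1 averaged 36.6 CPM in hetL1002P and 32.0 CPM in WT. Rrm2 also averaged higher in hetL1002P than in WT, and Pcna and Tyms lower. The condensation, helicase and nucleotide sums were 3 of 8 sums by role. The mitotic entry sum, given below, also lay lower in hetL1002P than in WT without overlap, as 3.77% of single genes tested did. None of the sums was tested, and none of their genes passed the test singly. The shares given are of single genes, which need not vary as sums do, and no share over sums was taken.

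Aurka and Tpx2 stood out among the mitotic genes. Aurora A kinase (Aurka) ripens centrosomes and builds the spindle, with Tpx2 as its activator on microtubules. Aurka was at the 81.9th percentile per kb, 233 times the level of its relative Aurkb, the kinase of the chromosomal passenger complex, and had no exon shared with another gene. Aurka levels were 16.9, 12.5 and 18.0 CPM in hetX753, 10.1, 10.3 and 20.5 CPM in hetL1002P, and 13.6, 14.9 and 11.8 CPM in WT libraries. The genotypes overlapped, and the highest and the lowest library were both hetL1002P. Tpx2 levels were 7.54, 5.84 and 5.22 CPM in hetX753, 3.82, 5.39 and 7.07 CPM in hetL1002P, and 4.56, 5.78 and 9.04 CPM in WT, again overlapping, with the library WT 3 highest. In the hetL1002P group the highest library for Aurka, Tpx2 and Cenpa was hetL1002P 3, 1 of the pair that lay apart over all genes; whether the genes moved with what sets those libraries apart was not tested.

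Of the remaining mitotic genes, Cenpa, the histone H3 variant of centromeres, averaged 1.17 ± 0.201 CPM in hetX753, 1.18 ± 0.85 CPM in hetL1002P and 1.49 ± 0.271 CPM in WT (SD, n = 3 each). Kif20a, a kinesin of the central spindle, averaged 0.918 ± 0.297 CPM in hetX753, 1.09 ± 0.213 CPM in hetL1002P and 0.902 ± 0.325 CPM in WT. Its exons share 31.8% of their bases with Cdc23 on the other strand, so its counts may include reads of that gene. Scarcer members shared bases with genes on the other strand in the same way. The shares were 20.8% for Ncapg (with Lcorl), 10.4% for Ccna2 (Exosc9), 7.09% for Plk1 (Gm44985) and 4.25% for Nusap1 (Oip5). Nusap1, which bundles spindle microtubules, had 40 counts in hetX753, 35 in hetL1002P and 38 in WT, and Kif11, the motor that pushes spindle poles apart, had 22 in hetX753, 35 in hetL1002P and 27 in WT. Kif11 was uneven within WT, where WT 3 held 18 counts and WT 1 and WT 2 held 5 and 4.

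The 14 scarce genes included the usual markers of dividing cells, each with between 4 and 73 counts in all 9 libraries together and at most 15 in a library. Mki67, the marker most used for cycling cells, had 10, 8 and 2 counts in hetX753, 9, 13 and 5 in hetL1002P, and 15, 6 and 5 in WT. Cyclin B1 (Ccnb1), partner of Cdk1, had at most 2 counts in any library. Plk1, a kinase of mitotic entry and exit, had 11 counts in hetX753, 11 in hetL1002P and 9 in WT, and Birc5 (survivin), of the passenger complex, had 11 in hetX753, 8 in hetL1002P and 12 in WT. The other scarce genes were Ccna2, Ccnb2, Cdk1, Aurkb, Cenpe, Cenpf, Kif23, Kif2c, Top2a and Ncapg.

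At this depth, differences in the scarce genes could not be resolved. Of the 14 genes, 6 had 0 counts in at least 1 library, and a count of 0 allows up to 3 counts, or 0.0888 CPM in the deepest and 0.155 CPM in the shallowest library, counting error only. Cdk1 had 0, 2 and 0 counts in hetX753, 1, 6 and 3 in hetL1002P, and 5, 2 and 6 in WT, so that hetX753 lay below WT without overlap in CPM, as 15.8% of all genes tested did. In hetL1002P against WT, Ccna2 lay below (3, 2 and 1 counts, against 4, 5 and 4 in WT) and Kif2c above (1, 1 and 1 counts, against 1, 0 and 0 in WT). Of all genes tested, 3.77% lay below and 5.67% above. Those shares are over genes that passed the count filter, unlike these. For Cdk1 and Kif2c, libraries with equal counts were parted by the scaling alone. With no low-count filter the log2 fold change of Cdk1 in hetX753 against WT was -2.53 (SE 1.06, adjusted p = 0.255, edgeR). All 14 genes had an adjusted p of 0.255 or more in that fit in each comparison. Kif2c, a microtubule depolymerase, had 0 counts in hetX753, 3 in hetL1002P and 1 in WT.

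Summed over the 34 genes, the genotypes were level. The sums were 127, 119.7 and 133 CPM in hetX753, 123, 124 and 143 CPM in hetL1002P, and 124, 128 and 130.1 CPM in WT libraries, on 2481 to 4200 counts per library. The means were 127 ± 6.89 CPM in hetX753, 130.2 ± 11.4 CPM in hetL1002P and 127 ± 2.98 CPM in WT (SD, n = 3 each). The log2 ratio of the means was -0.01 for hetX753 over WT and 0.03 for hetL1002P over WT, both smaller than the replicate SD of 0.06 and 0.09 on that scale. With library totals as the only scaling the log2 ratio was 0.11 for hetX753 over WT and 0.11 for hetL1002P over WT, each above its replicate SD, and the median of all tested genes stood at 0.12 in hetX753 and 0.10 in hetL1002P. Without WT 3 and hetL1002P 3 the log2 ratio was 0.01 for hetX753 over WT and -0.03 for hetL1002P over WT.

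The 14 scarce genes summed to 55, 54 and 27 counts in hetX753, 46, 66 and 36 in hetL1002P, and 62, 40 and 41 in WT. As CPM these were 1.98, 2.13 and 1.25 in hetX753, 1.81, 2.37 and 1.71 in hetL1002P, and 1.83, 2.06 and 1.98 in WT, and all genotypes overlapped. The 10 replication genes summed to 83.5 ± 4.84 CPM in hetX753, 90.2 ± 3.19 CPM in hetL1002P and 87.6 ± 0.955 CPM in WT (SD, n = 3 each). The 24 condensation and mitosis genes summed to 43.3 ± 3.55 CPM in hetX753, 40.0 ± 8.25 CPM in hetL1002P and 39.9 ± 2.45 CPM in WT. Much of the spread within hetL1002P came from Aurka and Tpx2: without them the mitotic sums were 21.3 ± 0.405 CPM in hetX753, 20.9 ± 0.968 CPM in hetL1002P and 19.98 ± 0.931 CPM in WT.

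**Figure D2:**
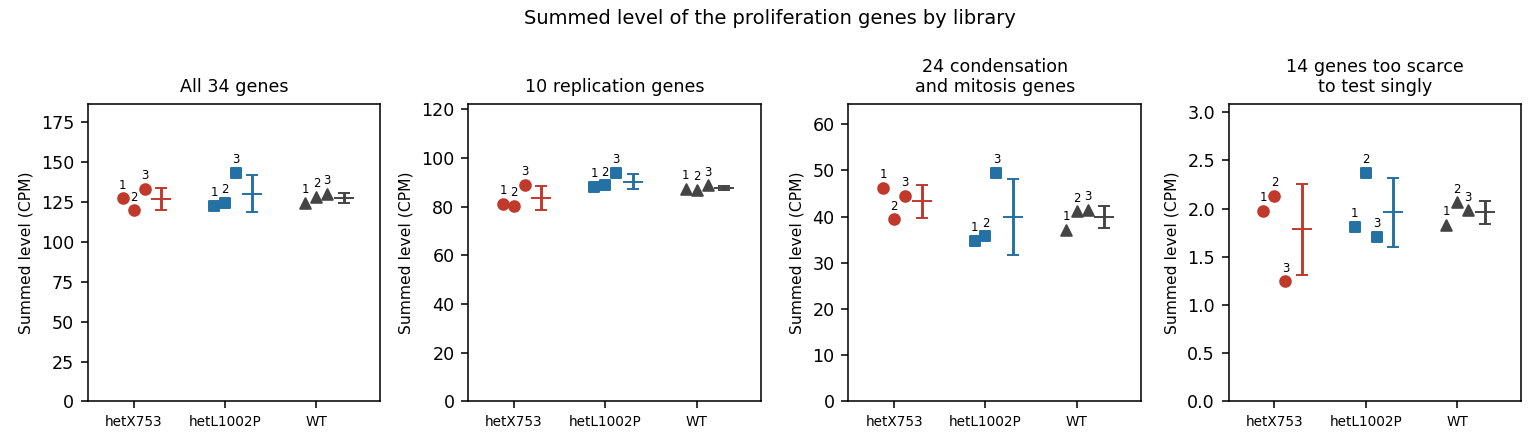
Summed level (CPM) of all 34 genes, the 10 replication genes, the 24 condensation and mitosis genes and the 14 scarce genes in each library (numbered points), with mean and SD of 3 libraries beside them. The sums of all 34 genes lie between 119.7 and 143 CPM, with hetL1002P 3 highest, and the scarce genes between 1.25 and 2.37 CPM.

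In hetX753 against WT, none of the 20 tested genes passed an adjusted p of 0.05, where 0.508% of all genes tested did (edgeR quasi-likelihood test, Benjamini-Hochberg over 12989 genes). DESeq2 also called 0 of the 21 members it gave an adjusted p, and limma-voom 0 of 20. At an unadjusted p under 0.05 there was 1 of the 20 genes, against 20.9% of all genes. Of all genes tested, 0.331% were called higher and 0.177% lower. Among the 20, 12 stood above 0 and 8 below; their median was 0.03 on the log2 scale, against 0.00 over all genes, and 18 lay within 1.5-fold of WT.

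The gene with the smallest p in that comparison was Rrm2. Its levels were 0.754, 0.947 and 1.20 CPM in hetX753, 0.551, 0.539 and 0.854 CPM in hetL1002P, and 0.503, 0.516 and 0.435 CPM in WT, on 9 to 26 counts per library. All 6 carrier libraries lay above all WT libraries, which 2.92% of all genes tested showed in that direction (4.45% in either); no member lay below WT in all 6. The hetX753 level was 1.97-fold that of WT (log2 0.98, SE 0.33, adjusted p = 0.161), which did not pass. In hetL1002P the log2 fold change was 0.40 (SE 0.34, adjusted p = 0.661).

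Next by p in hetX753 came Mcm2, Smc4 and Smc2. Mcm2 levels were 9.09, 8.68 and 6.88 CPM in hetX753, against 13.1, 9.55 and 9.48 CPM in WT, so the groups did not overlap (log2 -0.39, SE 0.18, adjusted p = 0.239). Smc4 levels were 4.96, 5.64 and 5.31 CPM in hetX753 and 3.61, 4.75 and 4.25 CPM in WT, with hetX753 above WT in every library (log2 0.34, SE 0.16, adjusted p = 0.262). Smc2, its partner in condensin, likewise stood at 0.683, 0.750 and 0.923 CPM in hetX753, all above the 0.621, 0.361 and 0.532 CPM in WT (log2 0.59, SE 0.37, adjusted p = 0.359). These and Rrm2 made 4 of 20 genes without overlap, 3 higher and 1 lower, where 32.5% of all genes tested did not overlap (16.7% higher, 15.8% lower). Of other members described above, the log2 fold change in hetX753 against WT was 0.00 (SE 0.11) for Rrm1, -0.12 (SE 0.16) for Pcna, 0.24 (SE 0.26) for Aurka, -0.10 (SE 0.14) for Mcm7, 0.07 (SE 0.12) for Ncapd2, -0.05 (SE 0.29) for Tpx2 and -0.34 (SE 0.44) for Cenpa, with adjusted p of 0.615 or more for each.

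**Figure D3:**
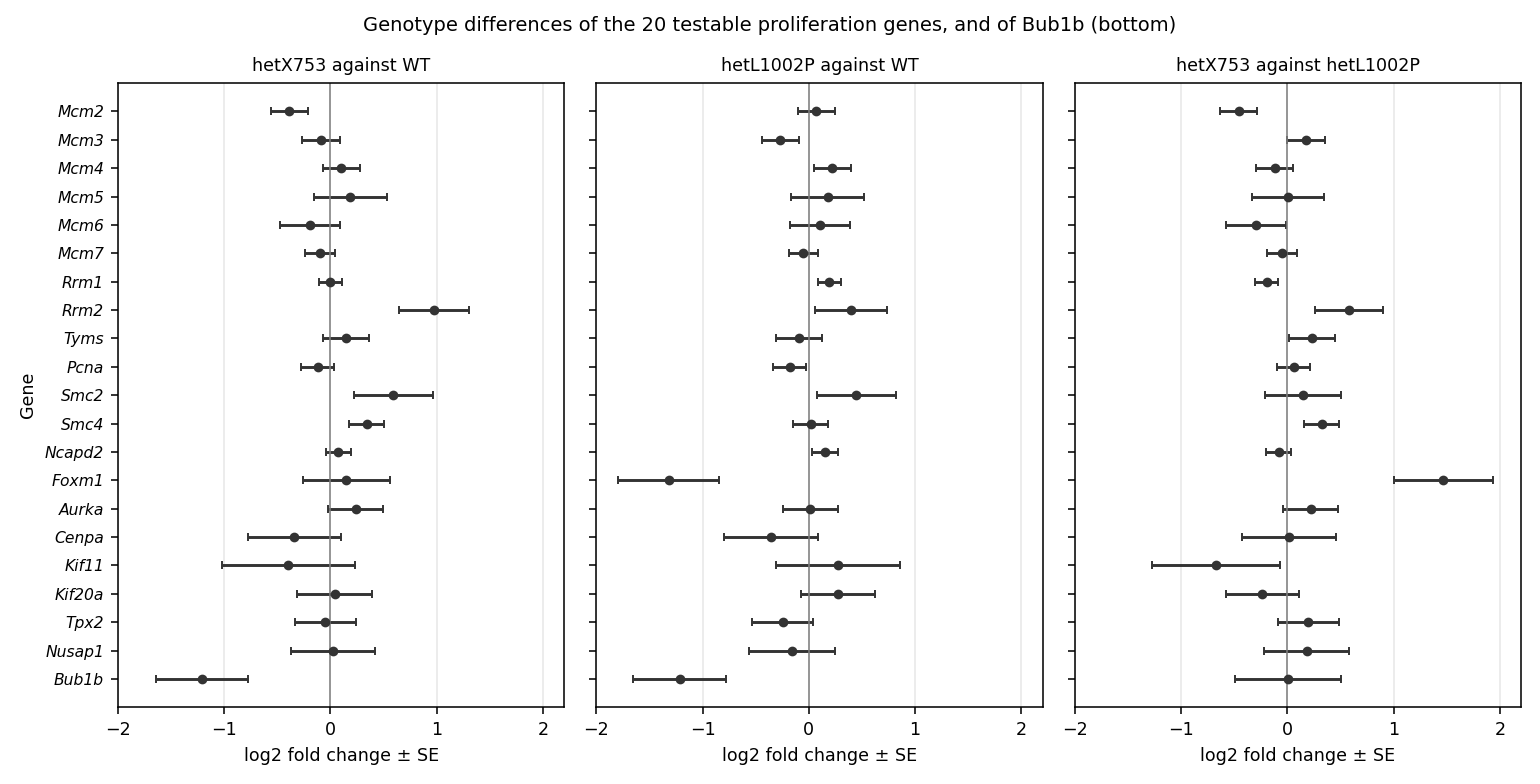
Log2 fold change with its SE (edgeR quasi-likelihood fit of all 9 libraries) of the 20 testable genes and of Bub1b in the 3 comparisons, positive where the genotype named first was higher. Rrm2 stands at 0.98 in hetX753 against WT and Foxm1 at -1.32 in hetL1002P against WT, and none of the points passed an adjusted p of 0.05.

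In hetL1002P against WT, none of the 20 tested genes passed, and 0% of all genes tested did (edgeR; DESeq2 called 0 of the 34 members and limma-voom 0 of 20). The unadjusted p was under 0.05 for 1 of the 20, against 7.96% of all genes. The replicate numbers of WT and hetL1002P met the bound for pairing given with the methods, though the labels do not state a pairing. With the number as a block on those libraries alone, 635 genes passed (5.01% of 12684), and 0 of the 19 member genes tested there. The member with the smallest p was Foxm1, the transcription factor that drives mitotic genes. Foxm1 had 13, 12 and 9 counts in hetX753, 6, 4 and 2 in hetL1002P, and 18, 8 and 5 in WT. In CPM this was 0.467, 0.474 and 0.415 in hetX753, 0.236, 0.144 and 0.0949 in hetL1002P, and 0.533, 0.413 and 0.242 in WT. The hetL1002P libraries lay below all others, by a log2 of -1.32 against WT (SE 0.47, adjusted p = 0.579). This gene was too scarce for the filter in the fit with that block.

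The 5 genes of mitotic entry (Foxm1, Cdk1, Ccna2, Ccnb1 and Ccnb2), a sum that holds Foxm1 itself and was not tested, stood at 0.789 to 0.898 CPM in hetX753 and 0.427 to 0.647 CPM in hetL1002P, against 0.878 to 0.919 CPM in WT. These sums rest on 63 counts in hetX753 (34 of them Foxm1), 38 in hetL1002P (12) and 66 in WT (31). Without Foxm1 the genotypes overlapped, at 0.316 to 0.431 CPM in hetX753, 0.197 to 0.503 CPM in hetL1002P and 0.355 to 0.677 CPM in WT. Rrm1, Mcm3 and Ncapd2 had the next smallest p in hetL1002P. Mcm3 stood at 3.30, 3.81 and 4.03 CPM in hetL1002P, against 4.23, 4.65 and 4.54 CPM in WT (log2 -0.27, SE 0.18, adjusted p = 0.594), and Ncapd2 at log2 0.15 (SE 0.12, adjusted p = 0.635). Counting Rrm2, Mcm4 and Foxm1 as well, 6 of the 20 genes did not overlap between hetL1002P and WT, 4 higher and 2 lower, where 9.44% of all genes did not (5.67% higher, 3.77% lower). Pcna stood at log2 -0.18 (SE 0.16), Mcm7 at -0.05 (SE 0.14), Tpx2 at -0.25 (SE 0.29) and Cenpa at -0.36 (SE 0.44) in hetL1002P, with adjusted p from 0.663 to 0.897.

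Between the carriers, hetX753 against hetL1002P, 0 of the 20 genes passed with edgeR, 0 of 20 with limma-voom and 0 of the 32 that DESeq2 gave an adjusted p, against 0.115% of all genes tested by edgeR (0.0616% higher, 0.0539% lower), and 2 had an unadjusted p under 0.05, against 8.24% of all genes. Those were Foxm1, at log2 1.47 (SE 0.47, adjusted p = 0.398), and Mcm2, at log2 -0.46 (SE 0.18, adjusted p = 0.513). Mcm2 levels in hetL1002P were 9.91, 11.7 and 12.2 CPM, all above the hetX753 libraries. Smc4 stood at log2 0.32 (SE 0.16, adjusted p = 0.678) and Rrm2 at 0.58 (SE 0.32, adjusted p = 0.703), while Rrm1 stood at -0.19 (SE 0.11, adjusted p = 0.720). The libraries of the carriers did not overlap for 5 of the 20 genes (Smc4 and Foxm1 higher in hetX753, Mcm2, Rrm1 and Kif11 lower), against 14.4% of all genes (7.44% higher, 6.98% lower).

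**Figure D4:**
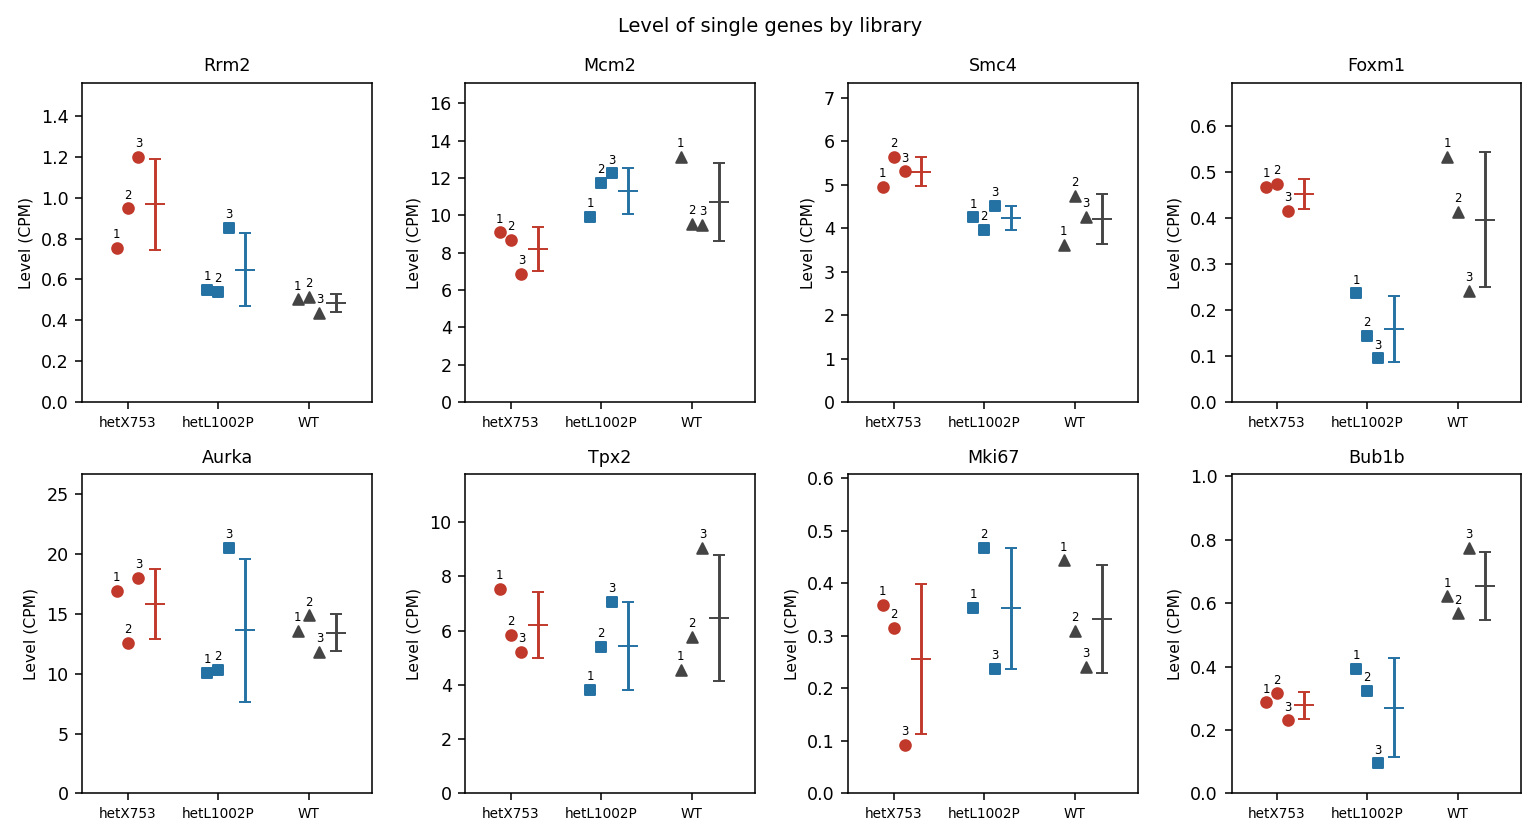
Level (CPM) by library of Rrm2, Mcm2, Smc4, Foxm1, Aurka, Tpx2, Mki67 and Bub1b, with mean and SD of 3 libraries beside the numbered points. Bub1b lies between 0.0949 and 0.393 CPM in the 6 carrier libraries and between 0.568 and 0.774 CPM in WT, while Mki67 overlaps between all genotypes.

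Bub1b is itself a mitotic gene, at a level per kb (0.109 CPM) near that of Smc2 and Nusap1, and its values are set beside those of the others. It averaged 0.278 ± 0.0432 CPM in hetX753, 0.271 ± 0.156 CPM in hetL1002P and 0.654 ± 0.107 CPM in WT (SD, n = 3 each). Every carrier library lay below every WT library, which 1.53% of all genes tested showed in that direction and none of the 20 tested member genes did. The log2 fold change was -1.21 (SE 0.44) in either carrier, with adjusted p = 0.177 in hetX753 and 0.579 in hetL1002P, so neither passed. Over the same libraries the 14 scarce genes summed to 1.78 ± 0.472 CPM in hetX753, 1.96 ± 0.358 CPM in hetL1002P and 1.96 ± 0.117 CPM in WT (SD, n = 3 each). The carrier comparisons share the WT libraries, so their values are given side by side and are not independent.

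Few related genes outside the list passed either. Of 56 other mitosis genes in the table, 21 could be tested, and none passed in any comparison (edgeR). Of all genes tested, 0.508% passed in hetX753 against WT, 0% in hetL1002P against WT and 0.115% between the carriers. The median log2 fold change of the 21 genes was -0.07 in hetX753 and -0.08 in hetL1002P against WT, and 0.01 between the carriers. Ncaph2, a subunit of condensin II, led that list with 16356 counts, while Bub1 and Cdc25c had 2 counts each in all libraries. Pttg1 (securin, which restrains separase) was next with 10020 counts and varied most: 27.3, 1.38 and 21.3 CPM in hetX753, 48.0, 44.3 and 67.7 CPM in hetL1002P, and 58.3, 62.2 and 82.8 CPM in WT. The hetX753 libraries lay below all others, with hetX753 2 far below its group (log2 -2.02 against WT, SE 0.70, adjusted p = 0.171).

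Of 56 other replication genes, 46 could be tested and 0 passed in any comparison (edgeR), beside the same shares of all genes. Their medians were -0.01 in hetX753 and -0.07 in hetL1002P against WT. Rpa1, of the single-strand binding protein that replication and repair share, led with 15694 counts. Rrm2b, the other small subunit of ribonucleotide reductase, had a log2 fold change of 0.70 in hetX753 against WT (SE 0.16, adjusted p = 0.0793, edgeR). In hetL1002P against WT it was 0.24 (SE 0.16, adjusted p = 0.593). Of the 46 genes, 23 stood above 0 in hetX753 and 16 in hetL1002P. The list of cell cycle entry and DREAM genes had 26 of 32 members tested, and 1 passed, in hetX753 against WT, where 0.508% of all genes tested did. Ccne2, cyclin E2, which brings cells into S phase, rose in hetX753, at 2.34, 2.88 and 2.58 CPM, against 1.18, 1.14 and 1.26 CPM in WT (log2 1.12, SE 0.20, adjusted p = 0.0417). In hetL1002P it stood at 2.16, 2.09 and 1.90 CPM, also above WT in every library (log2 0.78, SE 0.20, adjusted p = 0.579), and the carriers did not pass against each other (log2 0.34, SE 0.19, adjusted p = 0.716). Of all genes tested, 2.92% likewise had all 6 carrier libraries above WT. The call in hetX753 was lost with limma-voom (adjusted p = 0.0549), library totals alone (0.0612), no low-count filter (0.0515) and the replicate block in all libraries (0.0681), and with each single library left out except hetL1002P 3; over all alternatives the adjusted p ran from 0.00427 to 0.174 while the log2 fold change stayed between 1.04 and 1.24.

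Of the factors named in the background, the mean level over 9 libraries was 21.3 CPM per kb for E2f4 and 9.52 for Rbl2 of the DREAM complex, against 0.0331 for Mybl2 (B-Myb) and 0.0721 for Foxm1. DREAM subunits varied widely, from 0.722 CPM per kb for Lin54 to 21.3 for E2f4, with Rbbp4 at 16.7. So did the activator E2Fs, from 0.201 for E2f1 to 2.87 for E2f3. In bulk muscle, fewer cells of a type and less RNA per cell cannot be told apart, so these levels do not say which cells hold the transcripts.

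Markers of cells that could divide were present beside the fibres. The 10 satellite cell and myoblast markers summed to 68.6 to 71.5 CPM in hetX753, 58.3 to 69.7 CPM in hetL1002P and 56.4 to 74.5 CPM in WT, and the 10 endothelial markers to 295 to 297 CPM in hetX753, 231 to 313 CPM in hetL1002P and 262 to 325 CPM in WT. Connective tissue (fibro-adipogenic) markers summed to 647 to 807 CPM in hetX753 and 591 to 1338 CPM in hetL1002P, against 921 to 1076 CPM in WT, and 0 of 10 stood above 0 in hetX753 against WT. Macrophage markers summed to 87.1 to 93.0 CPM in hetX753, 77.0 to 151 CPM in hetL1002P and 81.1 to 138 CPM in WT, and 0 of 10 tested stood above 0 in hetX753 against WT. Fibre markers summed to 179685 to 196451 CPM in hetX753 and 191944 to 213682 CPM in hetL1002P, against 216416 to 234066 CPM in WT. The markers did not all go down: 5 of 12 stood above 0 in hetX753 against WT, and 5 of 12 in hetL1002P. The part of these shifts in the member genes' values was not tested.

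Markers of blood and lymphoid cells were low but counted, and the T cell and erythroid sums reached above the 1.25 to 2.37 CPM of the 14 scarce genes. B cell markers beside Bcl6 (14763 counts) had at most 73 counts each (Cd79b) over all libraries. T cell markers summed to 2.49 to 3.74 CPM in hetX753, 1.57 to 2.99 CPM in hetL1002P and 2.01 to 2.81 CPM in WT. The neutrophil and marrow list summed to at most 0.934 CPM in hetX753, 1.28 CPM in hetL1002P and 1.83 CPM in WT, with Mpo at 0. The erythroid list summed to 4.93 to 8.23 CPM in hetX753, 4.78 to 12.5 CPM in hetL1002P and 4.75 to 7.98 CPM in WT, nearly all of it Alas2, and the 4 haemoglobin genes were listed at 0 in every library. Schwann cell markers summed to 146 to 173 CPM in hetX753, 155 to 209 CPM in hetL1002P and 113 to 211 CPM in WT.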

How the data were processed

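The values the authors deposited are raw read counts, 1 whole number per gene symbol and library, for 9 libraries. Per the labels' protocols they were built with a TruSeq RNA version 2 kit, which keeps no strand. Listed in the submitters' processing notes, with no role, are mm10, Subread, featureCounts 1.4.6, Bowtie2 2.2.6 and TopHat2 2.0.14; the strand setting is not given in the sources used here. The titles gave each library its genotype. Libraries of the same genotype all differed by more than counting error (chi-square from 15.2 to 69.9 per degree of freedom).

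Tests used edgeR 4.0.16 in R 4.3.3: filterByExpr on genotype, TMM scaling, 1 robust quasi-likelihood model over the 9 libraries with a term for genotype and no other, glmQLFTest, and Benjamini-Hochberg over 12989 genes, with an adjusted p under 0.05 called. SE is the log2 fold change divided by the square root of F. The test was tried on simulated data. DESeq2 1.42.0, limma-voom (limma 3.58.1), other scalings, no filter, fewer libraries and a replicate block were alternatives. Exon length and overlaps came from GENCODE M21 and promoters from RefSeq (GRCm38.p6). Deviations from genotype means correlated at r = 0.285, 0.36 and 0.516 in the same-numbered pairs of WT and hetL1002P, over the bound of 0.1 used for pairing. The differently numbered hetL1002P 2 and WT 1 also passed it (r = 0.198). Same-numbered pairs with hetX753 did not all reach it. The labels do not say what the numbers mark, so the pairing is not established. Sums over genes got no test. The members, lists and rules were chosen with earlier results of these data known. Full values were given for genes past the threshold, the 4 members with the smallest p per comparison, the 4 highest per kb, the leading member of each role, common markers, and the leading genes of other lists.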

Additional observations from a re-analysis of the deposited data

How the results depend on the processing

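No member gene passed in any comparison under any of the alternatives, so those counts stayed at 0. The background counts of all genes moved. In hetX753 against WT (66 called) they were 629 with DESeq2, 31 with library totals alone, 254 on the 2 genotypes alone, 340 without WT 3 and hetL1002P 3, and 0 to 669 with single libraries left out. In hetL1002P against WT (0 called) they were 3 with DESeq2, 2 with limma-voom, 2 without the low-count filter, 2 without WT 3 and hetL1002P 3, 635 with the replicate block on WT and hetL1002P alone, and 0 to 1 with single libraries left out. In hetX753 against hetL1002P (15 called) they were 125 with DESeq2, 5 on the 2 genotypes alone, 38 without the low-count filter, 31 with the replicate block, 95 without WT 3 and hetL1002P 3, and 0 to 19 with single libraries left out. The replicate block changed no member's call.

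The summed level of the 34 genes in hetX753 against WT (log2 -0.01) moved to 0.11 with library totals alone and to -0.14 with only the scarce genes (hetL1002P against WT: 0.03, and 0.11 with library totals alone); with single libraries left out it ran from -0.05 to 0.03. Signs turned for small differences that had not passed. With library totals alone, hetX753 against WT gave Pcna 0.013, Mcm7 0.022 and Tpx2 0.083, and hetL1002P against WT gave Mcm7 0.036. Tpx2 in hetX753 also gave 0.038 with limma-voom, 0.020 with the replicate block and 0.28 without WT 3 and hetL1002P 3, where Foxm1 gave -0.087 and Pcna 0.027. With single libraries left out, hetX753 against WT ran from -0.085 to 0.47 for Foxm1, -0.23 to 0.024 for Pcna and -0.26 to 0.27 for Tpx2, and hetL1002P against WT from -0.14 to 0.029 for Mcm7, -0.48 to 0.072 for Tpx2 and -1.07 to 0.014 for Cenpa. The adjusted p over all alternatives ran from 0.0875 to 0.442 for Rrm2 in hetX753 and from 0.196 to 0.999 for Foxm1 in hetL1002P. The cause was not tested. Depth limits the 14 scarce genes, whose counts reach at most 15 in a library.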
